A study of Rattus norvegicus with 28 samples.

Results

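Hippocampal gene expression in injured rats given imipramine was set against that in sham-injured rats on 5 arrays, the 3 titled TBI+Imipramine and the 2 titled Sham, out of 14 gene expression arrays and 28 arrays in the series. Each array held whole hippocampal RNA from an adult male Sprague-Dawley rat, identified by an animal number in its title. Rats of the TBI+Imipramine group received a severe fluid percussion injury, in which a pulse of fluid strikes the exposed dura over the brain, and were injected with imipramine 1 h after it. Sham rats had no injury and no antidepressant, and the 3 rats of the TBI group, which serve here as the untreated injured reference, had the injury alone (a vehicle is named in the methods of the study for the rats without drug). All tissue was taken 24 h after injury or sham injury. Uninjured rats given imipramine were not analysed here, so TBI+Imipramine against Sham joins the effects of injury and of drug, and the untreated TBI arrays are needed to see which of the differences also occur without the drug.

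Imipramine is a tricyclic antidepressant that blocks the reuptake of serotonin and noradrenaline and also binds histamine, muscarinic and alpha-adrenergic receptors. In the injured hippocampus, damaged neurons and leaking vessels release signals that make astrocytes enlarge and switch on intermediate filament and acute phase genes, make microglia phagocytic, and draw monocytes and neutrophils from blood through chemokines and endothelial adhesion molecules. Injured neurons at the same time switch on stress and regrowth genes and lose some of their receptors and channels.

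Each value below is the log2 of a probe's processed signal divided by the 75th percentile among detected probes of the same array (those above background), so that 0 is the level of that percentile and a difference of 1 is a 2-fold change. Levels of different probes cannot be compared on this scale. A difference between the 3 TBI+Imipramine and 2 Sham arrays is given with its standard error in the limma fit. That fit pools the spread within groups over all 14 gene expression arrays. A probe was called higher or lower where its p after Benjamini-Hochberg adjustment over 17322 probes was under 0.05. Where a probe was below background on every array of a group only a bound is known, and the brighter group is given as at least N-fold higher than the dimmest signal still above background. On the 5 arrays 16412 to 18196 of the 30367 probes exceeded background and none was saturated. Both Sham arrays lay on a slide of their own and were scanned on another day than the rest, so slide and injury cannot be told apart in any difference from Sham. The 3 TBI+Imipramine arrays shared a slide with 5 drug-treated arrays, and the TBI arrays lay on the remaining slide. The p-values measure the spread between rats, pooled over all groups, the other drug groups included.

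Compared with Sham, 4046 probes passed the threshold in TBI+Imipramine, of which 3423 (19.8% of those tested) were higher and 623 (3.6%) were lower. This split depended on the scaling. The median difference over all probes was 0.18 with the scaling used here and lay between -0.083 and -0.058 when arrays were centred on their medians, made equal by quantiles, scaled over all probes or taken from the deposited series table. With median centring 2322 probes (13.4%) were higher and 3030 (17.5%) lower, so that the share of higher probes among those called fell from 84.6% to 43.4%. Changes of less than about 0.3 on the log2 scale therefore have no settled direction, and the counts of each gene list below are given on both scalings where they differ. Those counts are to be read beside the shares of all probes given here. The number of calls fell to 2035 without Sham array 1, to 2022 without Sham array 2, to 2436 without TBI+Imipramine array 1 and to 2250 without TBI+Imipramine array 2.

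**Figure D1:**
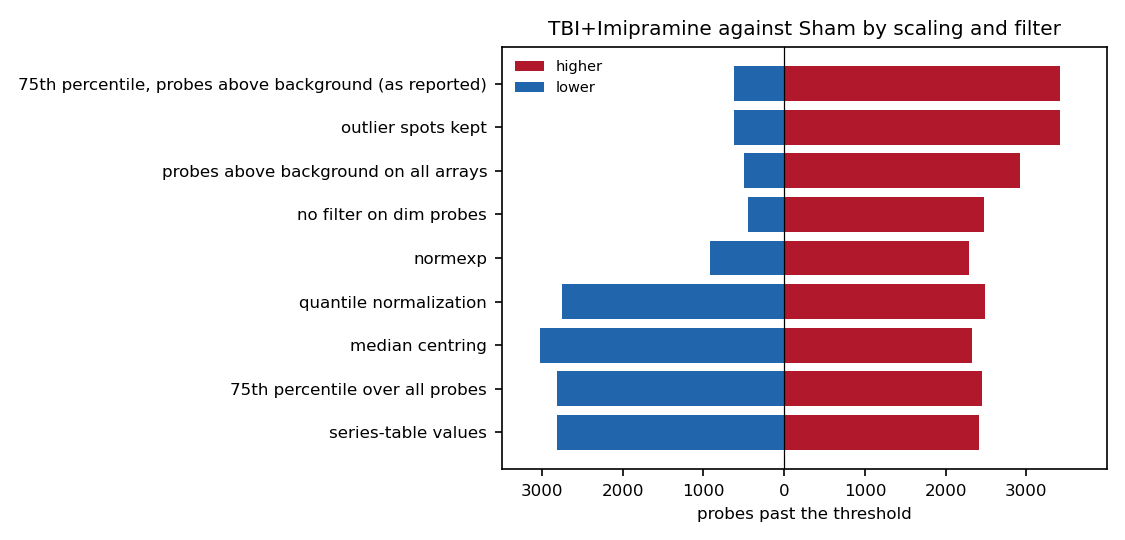
Number of probes past the adjusted threshold in TBI+Imipramine against Sham (horizontal axis, higher to the right and lower to the left) under each scaling or filter (vertical axis). The scalings that centre all probes gave 5231 to 5352 calls with 43.4% to 47.5% of them higher, against 4046 calls with 84.6% higher as reported.

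Most of what rose after injury alone was also higher in the injured rats given imipramine. Of 1438 probes higher in untreated TBI than in Sham (8.3% of those tested), 1414 (98.3%) were also called higher in TBI+Imipramine, where they made up 41.3% of the higher calls. Of 1441 probes lower in TBI (8.32%), 485 (33.7%) were also called lower in TBI+Imipramine, 77.8% of its lower calls. With median centring the shares kept were 1670 of 2023 higher probes (82.6%) and 1721 of 2392 lower probes (71.9%; 11.7% and 13.8% of probes tested were higher and lower in TBI on that scaling). Both comparisons use the same 2 Sham arrays, so a deviation of these arrays enters both in the same direction. A single probe, which carries no gene name, was called lower in TBI and higher in TBI+Imipramine.

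Among genes above background on all 5 arrays, those with the largest rises included protease inhibitors, a heat shock protein, a tubulin and genes of phagocytes. Timp1, an inhibitor of matrix metalloproteinases, read -3.15 and -1.99 on the Sham arrays and 2.80, 2.97 and 2.34 on the TBI+Imipramine arrays, a difference of 5.27 ± 0.38 (adjusted p = 9.73e-06), and the untreated TBI arrays read 2.30, 2.54 and 2.60. Serpina3n, a secreted protease inhibitor of reactive astrocytes, read -4.95 and -2.69 in Sham, 4.06, 1.76 and 1.13 in TBI+Imipramine and 1.47, 4.28 and 0.23 in TBI, with a difference from Sham of 6.13 ± 1.11 (adjusted p = 0.00263). It was high on every injured array but spread widely within both injured groups. Hspb1, a small heat shock protein, rose by 5.06 ± 0.54 (adjusted p = 0.000151) from -2.48 and -0.86 to 3.57, 3.32 and 3.28, and Tubb6, a beta tubulin, rose by 5.11 ± 0.25 (adjusted p = 7.61e-07) from -5.20 and -4.48 to 0.1, 0.33 and 0.36. Genes were named here only if the TBI+Imipramine and Sham arrays did not overlap. No Sham array reached the lowest TBI array for any of these 4 genes either. Lgals3 (galectin 3 of phagocytes), the imprinted RNA H19, S100a9 of neutrophils, the heparan sulphate proteoglycan Sdc1, the endotoxin co-receptor Cd14 and the class II chain RT1-Da completed the 10 largest rises among these genes, with differences from 4.11 to 4.96. All 10 genes were also called higher in TBI against Sham, by 2.72 (RT1-Da) to 5.82 (Serpina3n), and none was called between TBI+Imipramine and TBI.

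The 4 genes that exceeded the Sham arrays by the widest margins among those below background in Sham and above it on all 3 TBI+Imipramine arrays were Igsf7 l1, a receptor of the immunoglobulin family (at least 130-fold higher), the monocyte chemokine Ccl7 (at least 97.3-fold), the leukocyte protease inhibitor Slpi (at least 45.7-fold) and Fcrl2, an Fc receptor-like gene (at least 40-fold). Ccl7 read 0.60, 0.44 and -0.31 on the TBI+Imipramine arrays and -0.41, -0.59 and -1.65 on the TBI arrays. In all, 283 genes that passed the test were seen on every TBI+Imipramine array and on neither Sham array, and 11 the other way round. Only genes whose mean exceeded the dimmest signal still above background in the other group were counted. Their share of all tested genes was not counted. The TBI+Imipramine arrays had 16984 to 18196 probes above background and the Sham arrays 16412 and 16567.

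**Figure D2:**
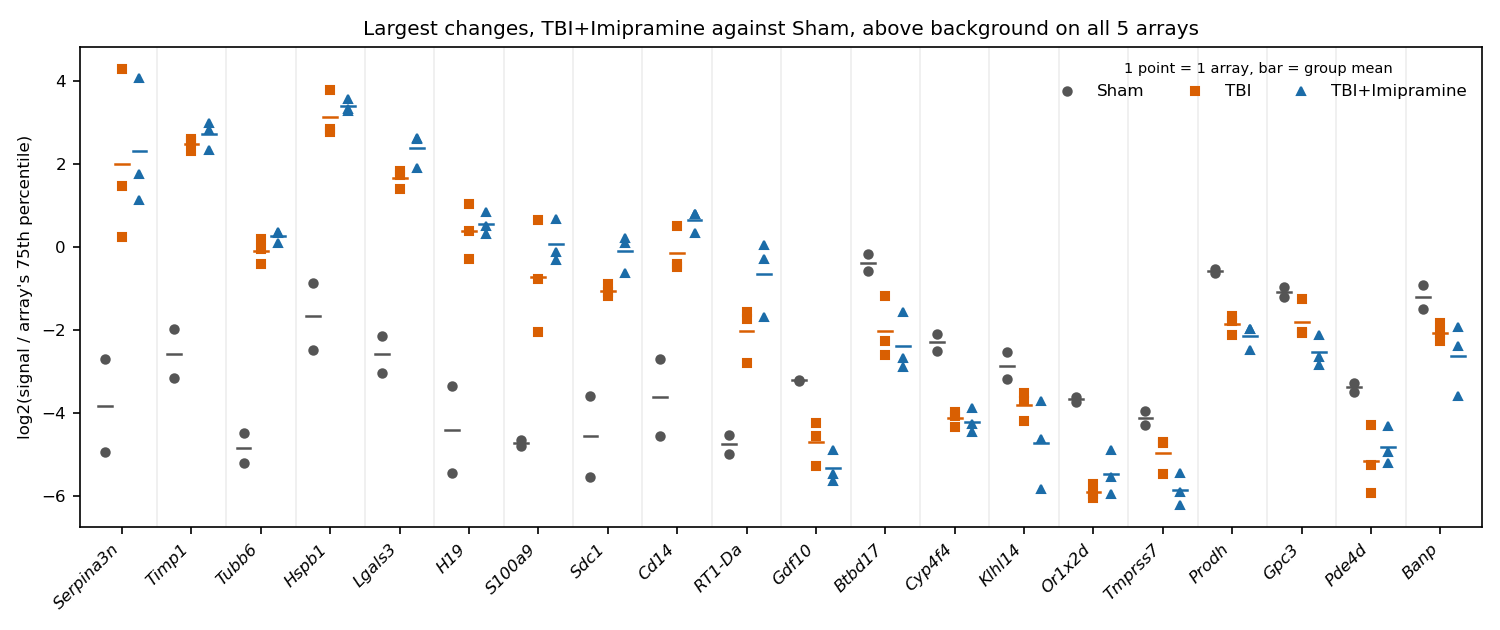
Log2 signal relative to the 75th percentile of each array (vertical axis) of the 10 higher and 10 lower genes with the largest differences between TBI+Imipramine and Sham (horizontal axis). Points are arrays and bars are group means, and the untreated TBI arrays lie on the same side of Sham as the TBI+Imipramine arrays for the 10 higher genes.

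The largest falls were smaller than the rises. Gdf10, a growth factor of the BMP family, read -3.23 and -3.20 in Sham and -5.47, -5.65 and -4.89 in TBI+Imipramine (difference -2.12 ± 0.51, adjusted p = 0.0109), and -4.56, -5.28 and -4.24 in TBI, where it did not pass (adjusted p = 0.0664). Cyp4f4, a fatty acid hydroxylase, changed by -1.90 ± 0.23 (adjusted p = 0.000283), from -2.10 and -2.50 to -4.46, -3.88 and -4.27, with -4.34, -3.98 and -4.06 in TBI. Prodh, which begins the breakdown of proline, changed by -1.57 ± 0.36 (adjusted p = 0.00877). The other 7 were Btbd17, Klhl14, Or1x2d, Tmprss7, Gpc3, Pde4d (a cAMP phosphodiesterase) and Banp, with differences of -2.01 (Btbd17) to -1.43 (Banp). The 2 lower genes above background on both Sham arrays and on no TBI+Imipramine array by the widest margins were Sptb, a spectrin chain of the membrane skeleton (at least 7.16-fold higher in Sham), and Afp (at least 3.49-fold). These falls rest on few arrays, and calls were lost without Sham array 1 for Gdf10, Btbd17, Klhl14, Prodh, Gpc3, Pde4d, Banp and Afp (adjusted p 0.058 to 0.175), without Sham array 2 for Gdf10, Btbd17, Gpc3, Pde4d and Banp (adjusted p 0.0567 to 0.119), without TBI+Imipramine array 2 for Btbd17, Gpc3, Pde4d and Banp (adjusted p 0.0622 to 0.11) and without TBI+Imipramine array 1 for Btbd17, Gpc3 and Pde4d (adjusted p 0.0697 to 0.117).

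Promoters of 5 genes called higher are shown because each holds a match to a response element of the stress, cytokine or interferon pathways described after them. The sequences are RefSeq promoters of the GRCr8 rat assembly, from 250 bases before to 50 bases after the annotated start of the gene, 5′ to 3′ on the strand of the gene, with matches in capitals. The first pair, of the small heat shock proteins Hspb1 and Hspb8, shows matches to the heat shock element GAANNTTC, beginning at -129 and -109 from the start site in Hspb1 and at -23 in Hspb8.
Hspb1 (chr12:26432252-26432551, minus strand): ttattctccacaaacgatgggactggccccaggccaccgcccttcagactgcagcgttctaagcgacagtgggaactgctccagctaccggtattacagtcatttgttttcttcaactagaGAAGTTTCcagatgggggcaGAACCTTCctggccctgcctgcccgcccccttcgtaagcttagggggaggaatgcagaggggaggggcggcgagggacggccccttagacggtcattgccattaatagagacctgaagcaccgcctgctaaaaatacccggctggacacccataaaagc
Hspb8 (chr12:45837058-45837357, plus strand): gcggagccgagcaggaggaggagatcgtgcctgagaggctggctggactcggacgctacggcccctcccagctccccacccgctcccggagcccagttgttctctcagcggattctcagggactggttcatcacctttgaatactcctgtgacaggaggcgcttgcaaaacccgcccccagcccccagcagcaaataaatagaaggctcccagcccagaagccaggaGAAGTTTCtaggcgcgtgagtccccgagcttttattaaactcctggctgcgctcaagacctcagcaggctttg
Serpina3n shows a match to the STAT element TTCNNNGAA at -123, and Gbp2 and Bst2 show matches to the interferon element, at -31 in Gbp2 and as 2 overlapping matches at -131 and -125 in Bst2.
Serpina3n (chr6:129088142-129088441, plus strand): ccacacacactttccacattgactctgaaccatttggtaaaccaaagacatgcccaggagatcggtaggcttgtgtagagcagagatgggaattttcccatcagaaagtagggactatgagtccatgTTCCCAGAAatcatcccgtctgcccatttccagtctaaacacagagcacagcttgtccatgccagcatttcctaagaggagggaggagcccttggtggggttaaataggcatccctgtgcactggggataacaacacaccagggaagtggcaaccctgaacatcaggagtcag
Gbp2 (chr2:234005477-234005776, plus strand): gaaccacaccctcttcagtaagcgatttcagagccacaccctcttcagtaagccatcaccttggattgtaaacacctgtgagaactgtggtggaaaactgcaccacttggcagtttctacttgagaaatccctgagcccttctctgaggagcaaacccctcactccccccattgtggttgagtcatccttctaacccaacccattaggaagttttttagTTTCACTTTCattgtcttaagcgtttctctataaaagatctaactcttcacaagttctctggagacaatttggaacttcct
Bst2 (chr16:18254918-18255217, minus strand): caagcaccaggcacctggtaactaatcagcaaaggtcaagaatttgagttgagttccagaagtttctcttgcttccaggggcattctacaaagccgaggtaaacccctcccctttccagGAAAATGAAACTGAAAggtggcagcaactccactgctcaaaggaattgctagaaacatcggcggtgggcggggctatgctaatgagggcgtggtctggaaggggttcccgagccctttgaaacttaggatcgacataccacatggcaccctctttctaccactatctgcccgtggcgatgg
Over both strands, the heat shock element was found in 9 of the 13 promoters of the heat shock list and in 8.34% of all 27457 promoters in the table. The interferon element was found in 10 of 16 promoters of the interferon list and in 3.77% of all promoters. The antioxidant response element TGANNNNGC was found in 13 of 16 promoters of the Nrf2 list and in 40.4% of all, and the STAT element in 3 of 19 promoters of the reactive astrocyte list and in 8.68% of all. A match describes the letters in this window and does not show that a factor binds there.

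Reactive astrocyte genes were higher almost without exception. Of 17 measured members of the list, 16 were higher in TBI+Imipramine and 14 in TBI, with a median difference from Sham of 2.61 and 2.21, beside 0.18 and 0.0015 over all probes. Median centring left the count at 16. All TBI+Imipramine arrays lay above both Sham arrays for 17 of them, as they did for 42.0% of all probes. Lcn2 (lipocalin 2, a secreted iron-siderophore binding protein) read -6.16 and -1.96 on the Sham arrays, the first of these below background, and 3.18, 3.14 and 3.05 in TBI+Imipramine, a difference of 7.19 ± 0.92 (adjusted p = 0.000372). The Sham arrays themselves lay far apart for this gene, yet both were below every injured array. The intermediate filament gene Vim rose by 3.96 ± 0.33 (adjusted p = 2.57e-05; -4.06 and -2.89 in Sham, 0.86, 0.66 and -0.057 in TBI+Imipramine and -0.30, -0.28 and -0.59 in TBI), and the asparaginase Aspg by 4.02 ± 0.48 (adjusted p = 0.000244). The pentraxin Ptx3 was the single measured member that did not pass, at 1.86 ± 1.01 (adjusted p = 0.205).

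Few genes of homeostatic astrocytes passed, and those that did were lower. Of 14 measured, 2 were lower and none higher in TBI+Imipramine, which rose to 6 lower with median centring, and 1 was lower in TBI. For 3 of the 6 members with several kept probes, the probes disagreed on the call against Sham, and the brightest was used. The glycolytic enzyme Aldoc read 4.95 and 4.60 in Sham and 3.99, 3.98 and 4.26 in TBI+Imipramine (difference -0.70 ± 0.22, adjusted p = 0.0345). The connexin Gjb6 had the largest difference that did not pass, -1.48 ± 0.62 (adjusted p = 0.105). The call of Aldoc was lost without Sham array 1 or 2 or TBI+Imipramine array 1 or 2 (adjusted p 0.0586 to 0.233).

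Chemokines and cytokines rose on the same arrays. Of 21 measured, 14 were higher and 1 lower in TBI+Imipramine, against 12 higher and none lower in TBI, with a median of 2.80 (2.18 when genes seen in 1 group alone are set to their bound). With median centring 13 were higher and 2 lower in TBI+Imipramine. Ccl2, which recruits monocytes, read -7.12 and -5.11 on the Sham arrays and 1.55, 1.46 and 0.50 on the TBI+Imipramine arrays, a difference of 7.29 ± 0.86 (adjusted p = 0.000242), with 0.80, 0.36 and -0.84 in TBI. The B cell chemokine Cxcl13 was at least 12.5-fold and the neutrophil chemokine Cxcl1 at least 10.9-fold higher than in Sham, where neither was above background (adjusted p = 0.000155 and 0.000275). TBI arrays read -3.21, -2.51 and -3.99 for Cxcl1, on either side of the -2.21, -3.30 and -3.21 of TBI+Imipramine. The member called lower was Il1a, named after its values were seen, which was above background on both Sham arrays and on no TBI+Imipramine array (at least 1.93-fold lower, adjusted p = 0.00996; -5.68 and -5.61 in Sham and -6.58, -6.93 and -7.18 in TBI+Imipramine). Cxcl10 did not pass, at 1.83 ± 0.89 (adjusted p = 0.16).

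Receptors and signalling genes for these ligands followed. Of 20 measured, 16 were higher in TBI+Imipramine (15 with median centring) and 12 in TBI, and none was lower. The decoy receptor Il1r2 was at least 9.72-fold higher than in Sham and the endotoxin receptor Tlr4 at least 4.42-fold (adjusted p = 0.00182 and 0.000546). After normexp background correction, which adds 50 to each signal and so shrinks differences of dim probes, Il1r2 differed by 1.60 on the log2 scale and was not called (adjusted p = 0.0515). The chain Il13ra1 of the interleukin 13 receptor read -4.42 and -4.19 in Sham, -1.83, -1.68 and -2.07 in TBI+Imipramine and -2.18, -1.98 and -2.09 in TBI, a difference from Sham of 2.44 ± 0.18 (adjusted p = 1.25e-05) with little spread in any group. Socs3, a feedback inhibitor of STAT signalling, was at least 3.69-fold higher (adjusted p = 0.0456), a call that was lost with median centring (adjusted p = 0.0616), after normexp (0.56, adjusted p = 0.255) and without Sham array 1 or 2, TBI array 2 or 3 or TBI+Imipramine array 1, 2 or 3 (adjusted p 0.053 to 0.173). Nfkbia, which holds NF-kappaB in the cytoplasm, did not pass at 0.72 ± 0.26 (adjusted p = 0.0618). The count of higher members was 7 without Sham array 1, 10 without Sham array 2 or TBI+Imipramine array 1 and 5 without TBI+Imipramine arrays 1 and 2.

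Microglial and macrophage genes rose, and Msr1 was also called higher than in untreated injury, though not with slide as a fixed term. Of 22 measured, 18 were higher in TBI+Imipramine (16 with median centring), 14 in TBI and none lower in either. Msr1, the scavenger receptor A of macrophages, was below background on both Sham arrays, read -3.67, -4.74 and -4.50 in TBI and -2.23, -1.94 and -2.61 in TBI+Imipramine, and was at least 17.1-fold higher than Sham (adjusted p = 7.8e-07) and 2.05 ± 0.27 higher on the log2 scale than TBI (adjusted p = 0.00695; 0.0407 with median centring). The groups of injured rats did not overlap for this gene. The share of all probes without such overlap was not counted, so no result is read from it. These groups lay on different slides, and with slide as a fixed term 2 probes were called between them, neither of them Msr1. Lgals3 read -3.04 and -2.14 in Sham, 1.82, 1.72 and 1.40 in TBI and 2.60, 2.61 and 1.90 in TBI+Imipramine, and Cd14 -4.54 and -2.71, -0.41, 0.49 and -0.50 and 0.79, 0.80 and 0.33 in the same order. The secreted phosphoprotein Spp1 rose by 4.93 ± 1.04 (adjusted p = 0.0057), a call lost without Sham array 1 (adjusted p 0.0632), and its Sham arrays read -6.31 and -2.03. Tmem119, a marker of resting microglia, was among the 4 that did not pass, at -0.75 ± 0.42 (adjusted p = 0.225). In whole hippocampus, fewer or more cells of a type and less or more RNA per cell cannot be told apart, here and below.

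Complement genes rose in both injured groups. Of 17 measured, 11 were higher in TBI+Imipramine (9 with median centring) and 10 in TBI, none was lower, and the medians were 1.22 and 1.14. The proteases that start the classical pathway, C1s and C1r, rose by 2.42 ± 0.26 and 2.21 ± 0.26 (adjusted p = 0.000152 and 0.000229), and their inhibitor Serping1 by 2.72 ± 0.33 (adjusted p = 0.000257). C1s read -1.5, -1.13 and -1.83 in TBI+Imipramine and -1.41, -1.21 and -1.83 in TBI. The anaphylatoxin receptor C5ar1 rose by 3.12 ± 0.38 (adjusted p = 0.00026), with -0.92, -0.81 and -1.84 against -1.90, -2.42 and -2.29 in TBI, where the difference from TBI did not pass (adjusted p = 0.129). C4a did not pass, at 0.68 ± 0.34 (adjusted p = 0.168).

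Interferon-stimulated genes passed in part and antigen presentation genes mostly. Of 18 interferon-stimulated genes measured, 10 were higher in TBI+Imipramine and 5 in TBI, which became 7 higher with 1 lower, and 9 higher in TBI, with median centring. The GTPase Gbp2, the ubiquitin-like Isg15, the tetherin gene Bst2 and Ifit3 led them: Gbp2 rose by 2.93 ± 0.37 (adjusted p = 0.000337) from -3.19 and -2.08 to 0.40, 0.52 and -0.038, Isg15 by 2.47 ± 0.47 (adjusted p = 0.0033), Bst2 by 2.40 ± 0.35 (adjusted p = 0.000783), and Ifit3 to at least 4.05-fold of Sham (adjusted p = 0.00123). Rsad2 did not pass, at 1.01 ± 0.58 (adjusted p = 0.231). The 10 higher genes became 5 without Sham array 1, 6 without TBI+Imipramine array 2 and 2 without TBI+Imipramine arrays 1 and 2. None of these genes was called between TBI+Imipramine and TBI, a comparison in which 2.82% of all probes were higher and 0.0289% lower.

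Of 15 antigen presentation genes measured, 13 were higher in TBI+Imipramine and 8 in TBI (11 and 9 with median centring). The count in TBI+Imipramine was 7 without Sham array 1 and 2 without TBI+Imipramine arrays 1 and 2. For 2 of the 3 members with several kept probes, the probes disagreed on the call against Sham. The class II chain RT1-Da read -4.98 and -4.53 in Sham, -1.73, -2.80 and -1.57 in TBI and -0.29, 0.049 and -1.68 in TBI+Imipramine, a difference from Sham of 4.11 ± 0.56 (adjusted p = 0.000531). The invariant chain Cd74 read -2.86 and -2.23, -0.14, -1.34 and -0.37 and 0.93, 1.26 and -0.25 in the same order and rose by 3.19 ± 0.49 (adjusted p = 0.00106). The proteasome subunit Psmb8 rose by 2.42 ± 0.48 (adjusted p = 0.00422), a call lost without Sham array 1 (adjusted p 0.0598), and RT1-Db1 by 2.32 ± 0.45 (adjusted p = 0.00368). For the class II genes, TBI+Imipramine arrays 1 and 2 lay above all TBI arrays and array 3 lay among them. Arrays 1 and 2 also carried the highest choroid plexus signal, with summed marker levels of 110.3 and 118.3 against 3.73 on array 3, and its part in this result was not tested. The difference from TBI did not pass for RT1-Da (adjusted p = 0.158) or Cd74 (adjusted p = 0.147). It passed for B2m, the light chain of class I molecules, named after its values were seen: 1.45 and 1.46 in Sham, 1.38, 1.59 and 1.69 in TBI and 2.17, 2.52 and 1.96 in TBI+Imipramine (adjusted p = 0.0436, and 0.0998 with median centring, where the call was lost). RT1-A2 did not pass against Sham, at 1.02 ± 0.71 (adjusted p = 0.328). Members of the RT1 family are near-identical copies that a probe may not tell apart.

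**Figure D3:**
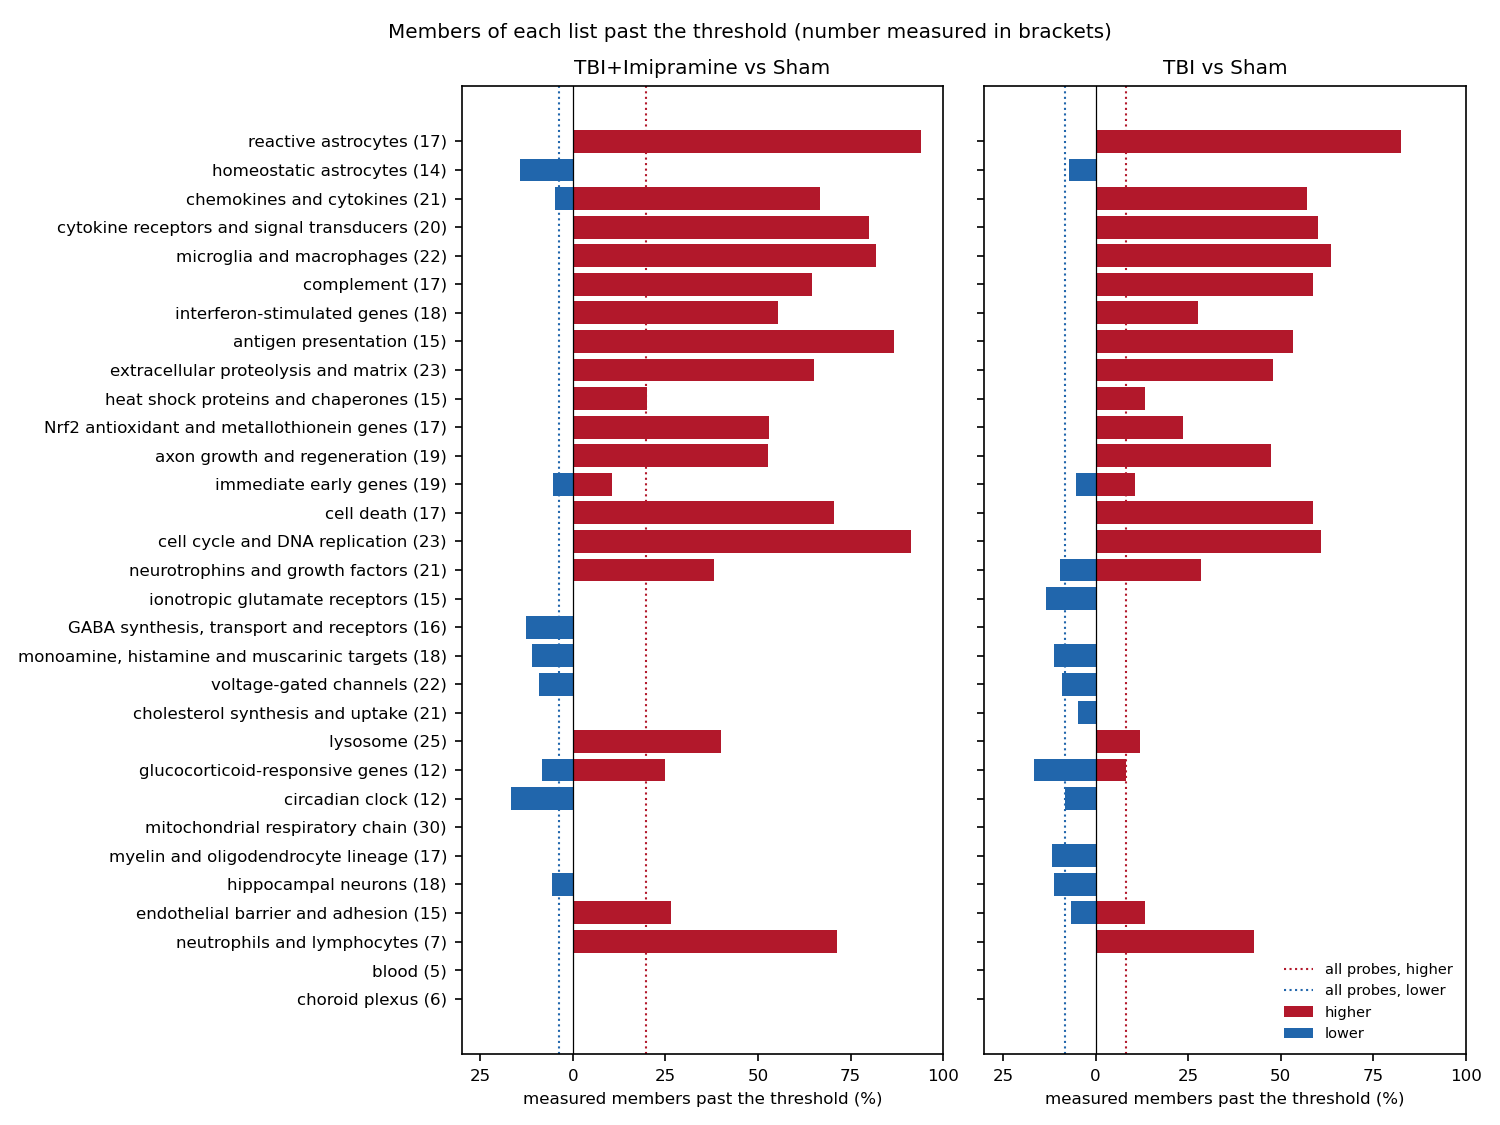
Share of the measured members of each gene list (vertical axis, number measured in brackets) called higher (right) or lower (left) against Sham, in TBI+Imipramine (first panel) and in TBI (second panel), in percent on the horizontal axis. Dotted lines give the share among all probes, 19.8% higher and 3.6% lower in TBI+Imipramine and 8.3% and 8.32% in TBI, and reactive astrocyte and cell cycle genes have the longest bars in TBI+Imipramine.

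Genes of extracellular proteolysis and matrix rose in 15 of 23 cases in TBI+Imipramine (14 with median centring) and in 11 in TBI. The macrophage elastase Mmp12 was below background on both Sham arrays and read -3.28, -2.46 and -3.53 on the TBI+Imipramine arrays, at least 9.63-fold higher (adjusted p = 0.0143). On the TBI arrays it read -3.99, -8.65 and -5.24, the second of them below background, and neither TBI against Sham (adjusted p = 0.234) nor TBI+Imipramine against TBI (adjusted p = 0.221) passed. Its call against Sham was lost without Sham array 1 or 2 or TBI+Imipramine array 2 (adjusted p 0.0514 to 0.0761). The urokinase receptor Plaur was at least 2.45-fold higher than in Sham (adjusted p = 0.000778). The collagen chain Col3a1 did not pass, at 1.77 ± 0.69 (adjusted p = 0.0835).

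Few heat shock genes passed. Of 15 measured, 3 were higher, beside 19.8% of all probes, namely Hspb1, Hspb8 and the mitochondrial chaperonin Hspe1, and 2 were higher in TBI. With median centring 3 were higher and 1 lower in TBI+Imipramine and 4 higher in TBI. Each gene was read on its brightest kept probe. For 4 of the 5 members with several kept probes, the probes disagreed on the call against Sham. Hspb1 and Hspb8, whose promoters are shown above, read 3.57, 3.32 and 3.28 and -1.89, -1.93 and -1.65 in TBI+Imipramine and 2.77, 3.77 and 2.84 and -2.40, -2.06 and -2.41 in TBI. Hspb8 rose by 2.04 ± 0.25 (adjusted p = 0.000257) and Hspe1 by 0.61 ± 0.16 (adjusted p = 0.0155), the latter call being lost without Sham array 2 (adjusted p 0.126). Bag3, a co-chaperone of Hspb8, did not pass at 0.85 ± 0.49 (adjusted p = 0.233). The heat shock element also lies in the promoters of Hspa8, Hsph1, Hspd1, Dnaja1 and Bag3, of which none was called on the probe used, and of Dnajb1, which had no named probe.

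Of 17 Nrf2 antioxidant and metallothionein genes, 9 were higher in TBI+Imipramine and 4 in TBI. With median centring 6 were higher and 1 lower in TBI+Imipramine and 7 were higher in TBI. Hmox1, which degrades heme, rose by 2.97 ± 0.70 (adjusted p = 0.00998) from -4.18 and -3.88 to -0.50, -0.76 and -1.92. The metallothioneins Mt1 and Mt2A rose by 1.87 ± 0.53 and 1.62 ± 0.34 (adjusted p = 0.0245 and 0.00586) and the peroxiredoxin Prdx1 by 0.87 ± 0.18 (adjusted p = 0.00473). The sulfiredoxin gene Srxn1 did not pass, reading 0.79 and 0.99 in Sham and 1.22, 1.03 and 1.13 in TBI+Imipramine (adjusted p = 0.733). Calls were lost without Sham array 1 for Hmox1, Mt1 and Mt2A (adjusted p 0.0507 to 0.131) and without Sham array 2 or TBI+Imipramine array 1 for Mt1 (adjusted p 0.0851 to 0.0896), and the list had 1 higher member without Sham array 1, 3 without Sham array 2 or TBI+Imipramine array 1 and 4 without TBI+Imipramine array 2.

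Genes listed for axon growth and regeneration rose in 10 of 19 cases in TBI+Imipramine and 9 in TBI, with medians of 1.06 and 1.05. The cells in which they rose cannot be told from whole hippocampus. With median centring 9 were higher and 2 lower in TBI+Imipramine and 10 higher in TBI. Tubb6 is given above. The TWEAK receptor Tnfrsf12a rose by 3.63 ± 0.48 (adjusted p = 0.000438), from -4.21 and -3.56 to -0.13, -0.28 and -0.37, with -0.72, 0.15 and -0.46 in TBI. The injury transcription factor Atf3 rose by 2.99 ± 0.48 (adjusted p = 0.00134) and the growth arrest gene Gadd45a by 2.98 ± 0.38 (adjusted p = 0.000336), while its relative Gadd45b did not pass at 1.06 ± 0.56 (adjusted p = 0.196). Of 19 immediate early genes 2 were higher and 1 lower in TBI+Imipramine, beside 19.8% and 3.6% of all probes, and 2 higher and 1 lower in TBI. With median centring 2 were higher and 2 lower in each. Fosl1 was at least 7.23-fold higher than in Sham (adjusted p = 0.000794), Myc rose by 1.39 ± 0.35 (adjusted p = 0.0142), and the nuclear receptor Nr4a1 changed by -0.72 ± 0.17 (adjusted p = 0.00935), from -0.58 and -0.55 to -1.06, -1.45 and -1.34. Fos itself did not pass, at 1.53 ± 0.71 (adjusted p = 0.139). Calls were lost without Sham array 1 for Myc and Nr4a1 (adjusted p 0.0517 to 0.128) and without Sham array 2 for Nr4a1 (adjusted p 0.0629).

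Cell cycle and DNA replication genes rose in 21 of 23 cases in TBI+Imipramine (18 with median centring) and 14 in TBI. The difference from Sham was larger in TBI+Imipramine than in TBI for all 23, on the scaling used here, with none called between the 2 groups. It was also larger in TBI+Imipramine for 26 of 30 respiratory chain and 23 of 25 lysosomal genes. Between TBI+Imipramine and TBI the median difference was 0.51 over the cell cycle list and 0.20 over all probes (-0.027 over all probes with median centring). The median over the list was 1.90 against 1.40 in TBI. The mitotic kinase Cdk1 read -5.86 and -3.81 in Sham, -1.59, -1.30 and -2.01 in TBI and -0.94, -0.95 and -1.09 in TBI+Imipramine (difference from Sham 3.84 ± 0.66, adjusted p = 0.00191), and the proliferation marker Mki67 read -6.35 and -4.51, -2.33, -2.10 and -2.77 and -1.62, -1.66 and -1.77 (difference 3.74 ± 0.70, adjusted p = 0.00311). Ccnb2 was at least 2.6-fold higher than in Sham and Ccna2 rose by 3.20 ± 0.49 (adjusted p = 0.00139 and 0.00104). For these 4 genes, picked by the size of their difference from Sham, all TBI+Imipramine arrays lay above all TBI arrays. The share of all probes separated in this way was not counted, so no result about these genes is read from it. The differences from TBI did not pass (adjusted p from 0.373 to 0.562). Cdkn1a, the cell cycle inhibitor p21, did not pass, at -0.21 ± 0.20 (adjusted p = 0.472). The count of higher members was 13 without Sham array 1. It was 1 without TBI+Imipramine arrays 1 and 2, where a single array remained in the group and the differences from Sham were close to those above, 3.75 for Cdk1, 3.65 for Mki67 and 3.18 for Ccna2 (adjusted p = 0.0819, 0.103 and 0.0556).

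Cell death genes rose in 12 of 17 cases in TBI+Imipramine, on both scalings, and in 10 in TBI (11 higher and 1 lower with median centring). The survival factor Bcl2a1 was at least 3.6-fold higher than in Sham (adjusted p = 0.000405), the necroptosis kinase Ripk3 rose by 2.53 ± 0.40 (adjusted p = 0.00115), and the inflammatory caspase Casp4 by 1.99 ± 0.24 (adjusted p = 0.000277). The inhibitor of apoptosis Birc3 was above background on 2 of 3 TBI+Imipramine arrays and on neither Sham array, reading -4.60, -4.52 and -5.81 and -7.21 and -7.17 (adjusted p = 0.00287). Birc3 was not called after normexp, where it differed by 0.36 (adjusted p = 0.153). Ripk3 and Casp4 promote cell death, and Bcl2a1 and Birc3 oppose it. Calpain 1 (Capn1) did not pass, at 0.58 ± 0.21 (adjusted p = 0.0638).

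Of 21 neurotrophin and growth factor genes, 8 were higher and none lower in TBI+Imipramine, against 6 higher and 2 lower in TBI (7 higher and 3 lower in TBI+Imipramine with median centring). The count of higher genes was 5 without Sham array 1 and 5 without Sham array 2. The non-coding RNA H19 rose by 4.95 ± 0.52 (adjusted p = 0.000136), Igfbp2, which binds insulin-like growth factors, by 2.66 ± 0.35 (adjusted p = 0.0004), the EGF receptor ligand Hbegf by 2.48 ± 0.62 (adjusted p = 0.0137) and the GDNF receptor Gfra1 by 1.77 ± 0.27 (adjusted p = 0.00102). The call of Hbegf was lost without Sham array 1 or 2 or TBI+Imipramine array 1 (adjusted p 0.0507 to 0.0906). Igf2, which the choroid plexus also makes, did not pass at 1.5 ± 0.96 (adjusted p = 0.284), with 1.83, 2.31 and -0.58 on the TBI+Imipramine arrays.

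Receptors, transporters and channels of neurons gave few calls on the scaling used here and more on the centred one, all of them lower. Of 15 ionotropic glutamate receptor subunits none passed in TBI+Imipramine (7 lower with median centring) and 2 were lower in TBI (3 with median centring), and the largest difference was that of Grin2c, -0.70 ± 0.27 (adjusted p = 0.0825; -0.97 and adjusted p = 0.0147 with median centring). Of 16 GABA genes 2 were lower in TBI+Imipramine (7 with median centring) and none in TBI (2 with median centring). They were the extrasynaptic receptor subunit Gabrd (-0.82 ± 0.25, adjusted p = 0.0326) and the metabotropic receptor Gabbr1 (-0.52 ± 0.16, adjusted p = 0.0373). Of 22 voltage-gated channels 2 were lower, or 15 with median centring, and 2 were lower in TBI, or 6. The N-type calcium channel Cacna1b read -0.34 and -0.12 in Sham, -0.77, -0.92 and -0.91 in TBI+Imipramine and -1.20, -1.0 and -0.77 in TBI (-0.64 ± 0.16, adjusted p = 0.0124), and the L-type channel Cacna1c changed by -0.59 ± 0.19 (adjusted p = 0.0418). Kcnq3 did not pass (-1.03 ± 0.52, adjusted p = 0.173). Calls were lost without Sham array 2 for Gabrd, Gabbr1, Cacna1b and Cacna1c (adjusted p 0.117 to 0.26), without Sham array 1 or TBI+Imipramine array 1 or 2 for Gabrd, Gabbr1 and Cacna1c (adjusted p 0.0575 to 0.19) and without TBI array 2 or TBI+Imipramine array 3 for Gabbr1 and Cacna1c (adjusted p 0.0503 to 0.0927), and that of Gabbr1 also after normexp (adjusted p = 0.132).

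The direct targets of imipramine and related receptors were mostly too dim to measure or did not pass. Of 35 listed genes 18 were measured. The serotonin transporter Slc6a4 and the histamine receptor Hrh1 did not pass the filter, and the noradrenaline transporter Slc6a2 differed by -0.38 ± 0.23 (adjusted p = 0.253). These 3 are named as known targets of the drug, outside the rule for named genes and after their values were seen. The 2 members called were lower. With median centring 4 were lower, beside 17.5% of all probes. In TBI 2 were lower (3 with median centring). The alpha2B adrenergic receptor Adra2b read -3.50 and -3.21 in Sham, -4.51, -4.48 and -4.37 in TBI+Imipramine and -5.36, -5.01 and -5.02 in TBI, a difference from Sham of -1.09 ± 0.19 (adjusted p = 0.00197). The TBI+Imipramine arrays lay between the other groups, and the difference from TBI did not pass (adjusted p = 0.054). The muscarinic receptor Chrm4 changed by -0.77 ± 0.18 (adjusted p = 0.0101), from -0.34 and -0.58 to -1.16, -1.40 and -1.13, a call lost without Sham array 1 (adjusted p 0.0913). The vesicular monoamine transporter Slc18a2 had the largest difference that did not pass, 0.98 ± 0.63 (adjusted p = 0.282).

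Lysosomal genes were called higher in 10 of 25 cases in TBI+Imipramine and 3 in TBI (8 higher and 2 lower, and 5 higher, with median centring). None was called between TBI+Imipramine and TBI. The cathepsin Ctsz rose by 2.36 ± 0.28 (adjusted p = 0.000255), from -3.60 and -2.52 to -0.68, -0.48 and -0.93 with -1.22, -1.02 and -1.45 in TBI. The progranulin gene Grn rose by 0.99 ± 0.16, the cathepsin Ctsl by 0.93 ± 0.17 and the hexosaminidase Hexa by 0.86 ± 0.20 (adjusted p = 0.00159, 0.00301 and 0.00997), while the lipase Lipa did not pass (0.64 ± 0.24, adjusted p = 0.0794). The call of Hexa was lost without Sham array 1 (adjusted p 0.0822), and the list had 4 higher members without Sham array 1, 5 without Sham array 2 or TBI+Imipramine array 2 and 6 without TBI+Imipramine array 1. Of 21 cholesterol genes none passed (5 lower with median centring, beside 17.5% of all probes) and 1 was lower in TBI (3 with median centring). The cholesterol exporter Abca1 had the largest difference, 0.90 ± 0.35 (adjusted p = 0.0863). It read -3.35, -3.55 and -3.46 in TBI+Imipramine and -4.88, -4.96 and -3.95 in TBI, a difference that did not pass (adjusted p = 0.0777). Of 30 respiratory chain genes none passed in either injured group, with a largest difference of 0.36 ± 0.25 for Ndufs4. With median centring 6 were lower in TBI+Imipramine, beside 17.5% of all probes, and 2 in TBI.

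Of 12 glucocorticoid-responsive genes 3 were higher, beside 19.8% of all probes. They were Lcn2 (given above), the kinase Map3k6 (1.74 ± 0.58, adjusted p = 0.0461) and the cyclin-dependent kinase inhibitor Cdkn1c (1.48 ± 0.45, adjusted p = 0.0338). The classical target Tsc22d3 (GILZ) was lower, reading 1.35 and 1.43 in Sham, 0.75, 0.65 and 0.60 in TBI+Imipramine and 0.26, 0.55 and 0.78 in TBI (-0.73 ± 0.19, adjusted p = 0.0158). With median centring 2 were higher and 4 lower, so the balance of the list turned with the scaling, and in TBI 1 was higher and 2 lower on both scalings. Sult1a1 did not pass (-0.94 ± 0.35, adjusted p = 0.0725). Of 12 clock genes 2 were lower, the period genes Per3 (-0.67 ± 0.18, adjusted p = 0.0168) and Per2 (-0.46 ± 0.15, adjusted p = 0.0448), and Nfil3 did not pass (0.94 ± 0.44, adjusted p = 0.142). With median centring 3 were lower, beside 17.5% of all probes, and 1 was lower in TBI (2 with median centring). Ciart, a clock repressor named after its values were seen, was the clock gene called between TBI+Imipramine (-3.33, -3.66 and -3.99) and TBI (-4.55, -4.56 and -4.47; adjusted p = 0.0394, or 0.168 with median centring). The count of higher glucocorticoid-responsive genes was 1 without either Sham array or without TBI+Imipramine array 1 or 2, and 2 without TBI+Imipramine array 3. The call of Map3k6 was lost with median centring (adjusted p = 0.0793) and after normexp (0.58, adjusted p = 0.296), and calls were lost without Sham array 1 or 2 or TBI+Imipramine array 2 for Map3k6, Cdkn1c, Tsc22d3, Per3 and Per2 (adjusted p 0.0519 to 0.259), without TBI+Imipramine array 1 for Map3k6, Cdkn1c and Per2 (adjusted p 0.0916 to 0.118), without TBI+Imipramine array 3 for Map3k6 and Per2 (adjusted p 0.0719 to 0.1), without TBI array 1 or 3 for Map3k6 (adjusted p 0.051 to 0.0524) and without TBI array 2 for Per2 (adjusted p 0.0591).

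Differences that were called in TBI+Imipramine against both Sham and TBI but not in TBI against Sham were few. They numbered 100 probes, 95 higher and 5 lower, of which 39 carry a gene name, and 11 of the 100 were above background on all TBI+Imipramine arrays and on no Sham or TBI array. Cd36, a scavenger and fatty acid receptor, read -5.61, -5.46 and -5.99 in TBI+Imipramine against -8.55 and -8.56 in Sham and -7.78, -8.62 and -8.57 in TBI, and was at least 1.59-fold higher than Sham and 1.46-fold higher than TBI (adjusted p = 0.00271 and 0.0154). Klra17, a killer cell lectin-like receptor, read -4.68, -4.35 and -5.49, -8.25 and -8.52 and -7.35, -8.20 and -6.13 in the same order and was at least 2.87-fold and 2.44-fold higher (adjusted p = 0.00125 and 0.029). Cd200r1, the inhibitory receptor through which neurons restrain microglia, read -6.25, -5.53 and -5.86 in TBI+Imipramine, -8.53 and -8.12 in Sham and -7.52, -7.14 and -7.14 in TBI (adjusted p = 0.000862 and 0.0436). It was at least 1.4-fold higher than Sham and 1.28-fold higher than TBI. The other higher genes of this kind were the acyltransferase Mboat1 (at least 3.55-fold over Sham), the importin Kpna3 (at least 2.61-fold), Cyp2j10 (at least 2.11-fold), Tnfaip2, a gene induced by tumour necrosis factor (at least 1.81-fold), and the sterol carrier Stard5 (at least 1.75-fold). All 8 were below background on both Sham arrays, and on the TBI arrays too except for Mboat1 on TBI array 3. They were picked by passing against both groups, so it is no separate result that the 3 TBI+Imipramine arrays lay above the 3 TBI arrays on each.

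The lower genes included signals well above background. Pdyn, the precursor of the opioid peptide dynorphin, read 0.50 and 0.48 on the Sham arrays, 0.61, 0.67 and 0.37 on the TBI arrays and -0.51, -0.27 and -0.62 on the TBI+Imipramine arrays, a difference of -0.96 ± 0.25 from Sham and -1.02 ± 0.22 from TBI (adjusted p = 0.016 and 0.0326). All 3 TBI+Imipramine arrays lay below all 5 others, for a gene picked by its differences from both groups. Abhd16a, a lipase of phosphatidylserine, read 0.53 and 0.76, 1.01, 1.08 and 1.02 and 0.12, 0.23 and -0.22 in the same order (adjusted p = 0.0217 and 0.0104). The phosphodiesterase Pde11a, above background on both Sham and 2 TBI arrays and on no TBI+Imipramine array, read -5.71 and -5.50, -5.42, -5.42 and -5.33 and -6.91, -7.23 and -6.31 (adjusted p = 0.00482 and 0.0105). Sptb, named above, read -4.11, -6.01 and -5.14 on the TBI arrays and -8.47, -8.94 and -8.45 on the TBI+Imipramine arrays (adjusted p = 0.0234 against TBI). Pdyn, Abhd16a and Pde11a also met the 3 criteria with median centring, where 8 probes did so in all and 5 of the 100 were shared. None of the 8 higher genes named above did, since their difference from TBI did not pass there. After normexp, 6 of those 8 were not called even against Sham, with differences of 0.40 for Cd36, 0.34 for Kpna3, 0.25 for Cd200r1, 0.20 for Cyp2j10 and Stard5 and 0.13 for Tnfaip2 (adjusted p 0.0641 to 0.573). The normexp differences of Cd36, Cd200r1, Kpna3, Cyp2j10, Stard5 and Tnfaip2 lie below the bounds given above, so the sizes for these dim probes depend on the background correction. Abhd16a was not called after normexp either (-0.52, adjusted p = 0.0633).

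The number of these differences also rested on single arrays. It was 4 without TBI array 1, 1 without TBI+Imipramine array 1 and 1 without TBI+Imipramine array 2, against 52 without Sham array 2, 59 without Sham array 1, 69 without TBI array 2, 87 without TBI array 3 and 103 without TBI+Imipramine array 3. TBI+Imipramine arrays 1 and 2 are those with high choroid plexus signal, and without both the count was 0. The part of that signal in these differences was not tested. TBI array 1 had the fewest probes above background of the 14 arrays, 14676. The calls of single genes against Sham were lost without Sham array 1 for Cyp2j10, Pdyn and Abhd16a (adjusted p 0.0507 to 0.0809), without Sham array 2 for Pdyn and Abhd16a (adjusted p 0.082 to 0.174) and without TBI+Imipramine array 3 for Abhd16a (adjusted p 0.0597). TBI and TBI+Imipramine lay on different slides, and with slide as a fixed term, which is then estimated from the Prozac arrays alone, 2 probes differed between TBI+Imipramine and TBI (494 without it), B4galt1 and Zfp202, named after their values were seen.

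**Figure D4:**
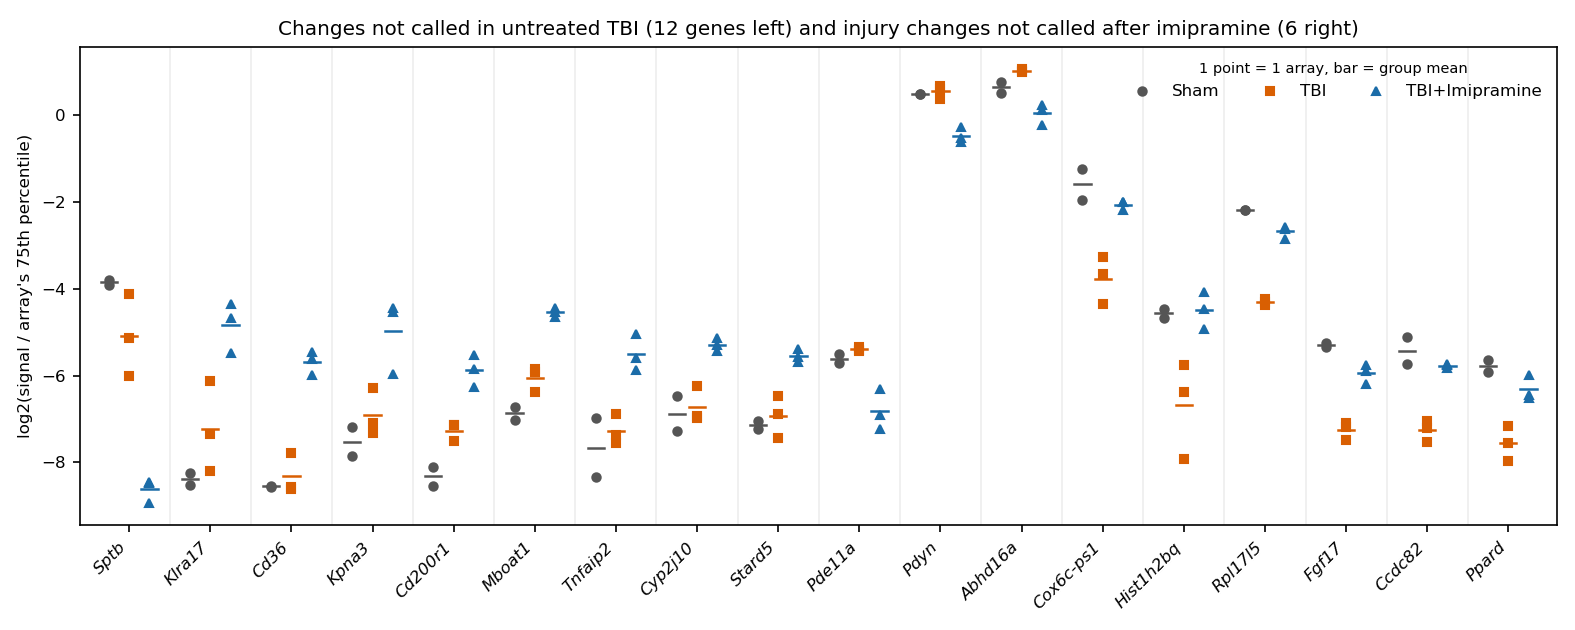
Log2 signal relative to the 75th percentile of each array (vertical axis) of 12 and 6 named genes (horizontal axis). The 12 were called in TBI+Imipramine against Sham and TBI but not in TBI against Sham. The 6 had the largest change among those called in TBI but not in TBI+Imipramine against Sham, and called between TBI+Imipramine and TBI. Points are arrays and bars are group means. Pdyn lies between -0.62 and -0.27 on the TBI+Imipramine arrays and between 0.37 and 0.67 on the others.

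The reverse class, probes that changed in TBI against Sham, were not called in TBI+Imipramine against Sham and differed between TBI+Imipramine and TBI, numbered 242, all lower in TBI. Of these, 47 carry a gene name. Rpl17l5, a ribosomal protein L17-like gene, read -2.18 and -2.19 in Sham, -4.23, -4.29 and -4.36 in TBI and -2.84, -2.61 and -2.58 in TBI+Imipramine, with differences of -2.11 ± 0.18 for TBI (adjusted p = 4.6e-05) and -0.49 ± 0.18 for TBI+Imipramine (adjusted p = 0.0721) from Sham and of 1.62 ± 0.16 between the injured groups (adjusted p = 0.00437). The cytochrome oxidase pseudogene Cox6c-ps1 read -1.23 and -1.94, -4.36, -3.67 and -3.27 and -2.19, -2.0 and -1.99, and the histone gene Hist1h2bq -4.47 and -4.66, -7.92, -5.75 and -6.39 and -4.46, -4.08 and -4.93 in the same order. The growth factor Fgf17, Ccdc82 and the lipid-sensing receptor Ppard were above background on both Sham arrays and on no TBI array. Fgf17 was at least 1.92-fold and Ccdc82 at least 1.75-fold higher in Sham than in TBI, and Ppard, for which no fold can be given, read -5.65 and -5.93 in Sham, -7.56, -7.16 and -7.97 in TBI and -6.52, -6.44 and -5.98 in TBI+Imipramine. Ribosomal and histone genes and pseudogenes have near-identical copies, so Rpl17l5, Cox6c-ps1 and Hist1h2bq are uncertain. With median centring 26 probes met the criteria, 24 of them among the 242, and Rpl17l5 (adjusted p = 0.018) and Fgf17 (adjusted p = 0.0154) were then called lower in TBI+Imipramine against Sham as well. The count was 23 without TBI array 1, 14 without TBI+Imipramine array 1 and 9 without TBI+Imipramine array 2, and 133 to 248 without any 1 of the other arrays.

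Markers of hippocampal neurons were present on all arrays, as the tissue label states, with a summed signal of 22.2 to 30.9 relative to the 75th percentile. Of 18 measured markers 1 was lower in TBI+Imipramine (5 with median centring) and 2 in TBI. The interneuron peptide Sst read 0.19 and -0.077 in Sham, -1.16, -0.65 and -0.84 in TBI+Imipramine and -2.13, -1.11 and -1.02 in TBI (-0.94 ± 0.32, adjusted p = 0.0498), a call lost after normexp (adjusted p = 0.0511) and without Sham array 1 or 2, TBI array 2 or TBI+Imipramine array 1, 2 or 3 (adjusted p 0.0537 to 0.224). Camk2a did not pass (-0.50 ± 0.27, adjusted p = 0.203). None of 17 myelin and oligodendrocyte genes passed (3 lower with median centring) and 2 were lower in TBI, with Mobp at -0.97 ± 0.38 (adjusted p = 0.0875). Gpr17 of oligodendrocyte precursors, named after its values were seen, read -4.85 and -4.79 in Sham, -6.32, -5.86 and -6.08 in TBI and -5.11, -5.39 and -5.32 in TBI+Imipramine and was called between the injured groups (adjusted p = 0.025, or 0.0988 with median centring). Of 15 endothelial genes 4 were higher in TBI+Imipramine, beside 19.8% of all probes, and 2 were higher and 1 lower in TBI. With median centring 4 were higher and 1 lower in TBI+Imipramine. For each of the 2 members with several kept probes, the probes disagreed on the call against Sham. Those higher were the adhesion molecules Icam1 (1.67 ± 0.29, adjusted p = 0.00191) and Icam2 (1.16 ± 0.22, adjusted p = 0.0035), the vesicle diaphragm gene Plvap (0.91 ± 0.25, adjusted p = 0.0211) and the tight junction gene Cldn5 (0.82 ± 0.15, adjusted p = 0.0022). The call of Plvap was lost without Sham array 1 or TBI+Imipramine array 2 (adjusted p 0.084 to 0.192), and after normexp neither Icam2 (0.17, adjusted p = 0.415) nor Plvap (0.49, adjusted p = 0.0795) was called. Tie1 did not pass (1.01 ± 0.37, adjusted p = 0.0679).

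Of 7 measured markers of blood-borne leukocytes 5 were higher in TBI+Imipramine, on both scalings, and 3 in TBI (where 1 was lower with median centring). The neutrophil proteins S100a9 and S100a8 rose by 4.80 ± 0.61 and 4.35 ± 0.72 (adjusted p = 0.000364 and 0.00158), and S100a9 read -4.79 and -4.65 in Sham, -0.77, 0.65 and -2.06 in TBI and -0.32, 0.67 and -0.12 in TBI+Imipramine. The T cell co-receptor Cd8a was at least 5.14-fold higher than in Sham (adjusted p = 0.00174) and the NADPH oxidase subunit Ncf1 rose by 1.84 ± 0.37 (adjusted p = 0.00442). The T cell receptor chain Cd3e did not pass (0.34 ± 0.50, adjusted p = 0.663). The summed signal of the list, relative to the 75th percentile, was 0.316 and 0.372 in Sham, 0.848 to 3.05 in TBI and 2.11 to 3.7 in TBI+Imipramine, with 5 to 10 of 15 markers above background per array. None of 5 red cell genes passed, Ahsp having the largest difference (-0.97 ± 0.50, adjusted p = 0.184), and their summed signal was 17.03 and 21.7 in Sham and 12.5 to 25.8 in TBI+Imipramine.

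Markers of the choroid plexus, a secretory epithelium that lies against the hippocampus in the ventricle, differed from array to array. None of 6 measured markers passed, although their median difference from Sham was 2.52 in TBI+Imipramine and -0.065 in TBI. The water channel Aqp1 read -1.11, -0.97 and -6.54 on the TBI+Imipramine arrays, -7.41 and -4.79 on the Sham arrays and -7.13, -6.03 and -2.66 on the TBI arrays (difference 3.22 ± 2.05, adjusted p = 0.28). The thyroid hormone carrier Ttr read 6.63, 6.69 and 0.79, -0.83 and 4.86 and -0.68, 0.90 and 4.83 in the same order (adjusted p = 0.554). The summed signal of the 6 markers was 110.3, 118.3 and 3.73 on the TBI+Imipramine arrays, 2.23 and 32.1 on the Sham arrays and 1.89, 3.35 and 32.7 on the TBI arrays, and all 14 markers on the array were above background on TBI+Imipramine arrays 1 and 2, against 5 on array 3. TBI+Imipramine arrays 1 and 2 were thus high, array 3 was low, and Sham array 2 and TBI array 3 were between. With TBI+Imipramine arrays 1 and 2 left out, the group was 1 array, assumed to vary like the other groups, and 347 probes passed against Sham, 95.1% of them higher, and 0 against TBI. With that 1 array, 8 of 17 reactive astrocyte genes, 9 of 21 chemokines and cytokines, 6 of 22 microglial genes, 6 of 17 complement genes, 2 of 15 antigen presentation genes and 1 of 23 cell cycle genes were called higher. A fit to 1 array makes fewer calls at a given difference. The difference from Sham fell for RT1-Db1 from 2.32 to 1.5 (adjusted p = 0.179) and for Cd74 from 3.19 to 2.29 (adjusted p = 0.0773). It was no smaller for Psmb8, 2.42 with all 3 arrays and 2.43 with 1, or for Pdyn, -0.96 and -1.11. It shrank for Pde11a from -1.21 to -0.70, for Klhl14 from -1.86 to -0.85, for Hmox1 from 2.97 to 2.11 and for Serpina3n from 6.13 to 4.95.

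**Figure D5:**
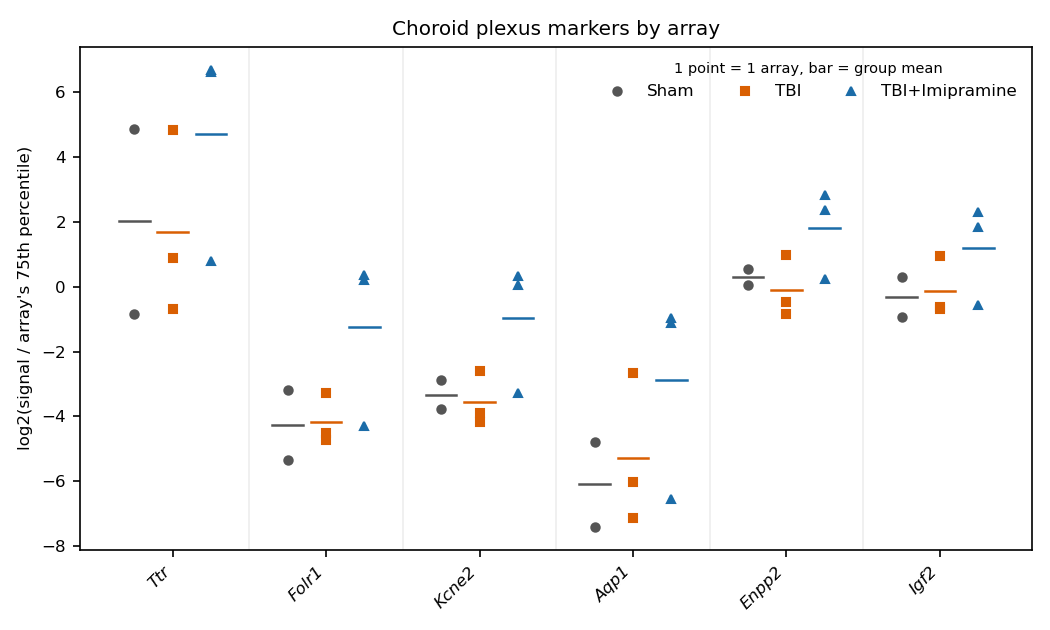
Log2 signal relative to the 75th percentile of each array (vertical axis) of the 6 measured choroid plexus markers (horizontal axis) on the Sham, TBI and TBI+Imipramine arrays. Points are arrays and bars are group means, and TBI+Imipramine arrays 1 and 2 lie far above array 3 for every marker.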

How the data were processed

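Per the file headers and the methods of the study, the authors labelled total RNA in 1 colour and scanned it on Agilent rat gene expression arrays. The deposited processed signal is an intensity per spot from which Feature Extraction had subtracted background, and flags for outlier, saturated and well-above-background spots stand beside it. Non-outlier spots of a probe were averaged and divided by the 75th percentile among detected probes of the same array. The methods of the study state this scaling, and the values were put on a log2 scale. This scaling carries the number of dim probes above background on an array into every value, and other scalings were therefore tried. Of 30367 probes, 17322 were above background on all arrays of at least 1 group and were tested. Probes were named through their accessions in a RefSeq table of GRCr8, which held 18643 of the 30367 (the array design was annotated on rn4). In lists 1 probe per gene was used, the kept probe with the highest mean over all gene expression arrays. Other kept probes of the same gene disagreed with it on the call in some cases.

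Group means of all 14 gene expression arrays were fitted with limma 3.58.1 in R 4.3.3 (9 residual degrees of freedom), with Benjamini-Hochberg adjustment. The fit was tested on simulated data. The authors' own series table is an intensity scaled by 1 constant per array and served as an alternative. It gave 5231 calls in TBI+Imipramine against Sham, 46.1% of them higher. The 75th percentile over all probes gave 5273 calls (46.5% higher), and the scaling used here 4046 (84.6% higher). The counts from the deposited values thus lay nearer to the scaling over all probes than to the one used here. Genes named were, with 1 probe each, the 10 highest and 10 lowest by difference from Sham among those past the threshold, above background on all 5 arrays and without overlap, up to 4 higher and 2 lower by bound, up to 4 called members and the largest uncalled member of each list, the 8 higher and 8 lower not seen in untreated TBI (4 lower genes had a name), and the 6 largest not kept. The members and gene lists were chosen with earlier results of these data known. Some genes that this rule names are not reported here. The miRNA arrays were not used here.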

Additional observations from a re-analysis of the deposited data

How the results depend on the processing

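Among the genes named by rule, none was called against Sham in opposite directions by the main fit and an alternative run. The direction of small uncalled differences, such as that of Srxn1, is not settled. The number of probes past the threshold in TBI+Imipramine against Sham lay between 2022 and 4901 when 1 array was left out, and the other alternatives that moved it by over 1.5 times were the methods' t-test after Benjamini-Hochberg adjustment (1111) and leaving out TBI+Imipramine arrays 1 and 2 together, an alternative chosen after seeing the data (347, of which 95.1% were higher). The share of higher probes was 47.5% after quantile normalization, 43.4% with median centring, 46.5% with the 75th percentile over all probes, 46.1% in the series table and 71.3% after normexp background correction, and 81.2% to 92.1% with 1 array left out. In TBI against Sham the count was 4329 after quantile normalization, 4415 with median centring, 4446 with the 75th percentile over all probes, 4392 in the series table, 1916 with no filter on dim probes, 1540 with the compared groups alone, 0 with the t-test after adjustment, and 1268 to 2982 with 1 array left out. The t-test gave 3031 at its unadjusted threshold with the 1.2-fold limit, and limma 2879.

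In TBI+Imipramine against TBI the count of 494 became 56 after quantile normalization, 51 with median centring, 58 with the 75th percentile over all probes, 56 in the series table, 283 with no filter, 998 with slide as a random block, 2 with slide as a fixed block, 2440 with the t-test and its 1.2-fold limit, 27 with the t-test after adjustment, 0 without TBI+Imipramine arrays 1 and 2, and 13 to 482 with 1 array left out. The 100 changes not seen in untreated TBI became 8 after quantile normalization, with median centring, with the 75th percentile over all probes and in the series table, 44 with no filter, 252 with slide as a random block, 681 with the t-test and its fold limit, 6 with the t-test after adjustment, 0 without TBI+Imipramine arrays 1 and 2, and 1 to 103 with 1 array left out. The 242 injury changes not kept became 29, 26, 30 and 28 under those 4 scalings in the same order, 160 after normexp, 155 with no filter, 142 with the compared groups alone, 420 with slide as a random block, 415 with the t-test and its fold limit, 0 with the t-test after adjustment and without TBI+Imipramine arrays 1 and 2, and 9 to 248 with 1 array left out. The causes of these shifts were not tested. With no filter, and so more probes in the adjustment, the calls against Sham of Btbd17, Pde4d, Banp, Aldoc, Socs3, Mt1, Gabrd, Gabbr1, Cacna1c, Map3k6, Cdkn1c, Per2, Sst and Abhd16a were lost (adjusted p 0.0503 to 0.115), and with the compared groups alone those of Klhl14, Banp, Plvap and Abhd16a (adjusted p 0.0555 to 0.0872).

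Replicate numbers did not pair the arrays, since deviations of same-numbered arrays correlated at -0.23 to 0.23. With the replicate block 3319 probes passed in TBI+Imipramine against Sham, 2388 in TBI against Sham and 384 between the injured groups, and 51 were not seen in untreated TBI and 206 not kept. Normexp used the median spot signal. With 2 Sham arrays, the number of arrays limits the precision.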
